A study of Mus musculus with 2 samples.

Results

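The transcript models described here belong to a class of incomplete splice matches defined as keeping the last introns of an annotated transcript and lacking its first introns. They were taken as the rows that the authors' files class as ISM (incomplete splice match) with the subtype Suffix, and are called suffix models below. Replicate 1 held 9975 of them among 62973 endogenous models, and replicate 2 held 10215 among 67036. Matched by chromosome, strand and intron chain, they formed 16604 distinct chains. The study sequenced long cDNA reads of adrenal gland from male B6CASTF1/J mice (F1 offspring of the inbred strains C57BL/6J and CAST/EiJ) at 36 days of age, as 2 libraries of 1 group with no treatment. The labels share 1 donor identifier and disagree on whether the libraries carry the same animal number, so that separate animals are not certain. The spread between the libraries may therefore be partly technical, and the tests below compare the reads of these libraries, not conditions.

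A gene with introns is copied from its start site, spliced, and closed with a poly(A) tail. By the definition of its class, a suffix model has the last introns of such a transcript, in the same order and to the base. It lacks 1 or more of the first introns. Its first base can lie downstream of them. In some models it lies within or before a missing intron, which the model then keeps unspliced. RNA broken before copying, a cDNA that stops early and transcription that starts inside the gene can all leave a model without its first introns. The introns of a model do not tell these origins apart. The annotated start codon often lies in the missing part, so a suffix model need not encode the annotated protein.

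The deposited starts of well-read suffix models can be placed in the annotated mRNA. Each line below gives 30 bases of the parent transcript in GENCODE M21 (GRCm38, the sequence of mm10), 5' to 3'. The last bases of the missing exon are in lower case and the first bases of the first retained exon in capitals. The coordinates cover only the bases in capitals. The lines are shown because the models of these 6 genes were deposited with starts at exactly these exon edges in both libraries. Most suffix models have a deposited start at an annotated boundary (given below), so this is not particular to these genes. It does not show where each read ended.
Star-201, exon 3 to exon 4 (plus strand, chr8:25810945-25810959): aaggaaagccagcagGAGAACGGGGACGAA
Hao2-201, exon 4 to exon 5 (minus strand, chr3:98882073-98882087): agagcacagctaaagCTGCTCAGAAGGCCA
Fabp4-201, exon 2 to exon 3 (minus strand, chr3:10205328-10205342): gacaggaaggtgaagAGCATCATAACCCTA
Ndufa4-205, exon 2 to exon 3 (minus strand, chr6:11905248-11905262): taatccagatgtcagCTGGGACAGAAAGAA
Ndufa13-201, exon 1 to exon 2 (minus strand, chr8:69901718-69901732): ggctcacgaaagaaaGGAACCTCCTGGGTG
C4b-201, exon 35 to exon 36 (minus strand, chr17:34729892-34729906): ttgtactttgactcgGTCCCTACCACCCGG

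The endogenous depth was 452489 reads in replicate 1 and 463210 in replicate 2. Markers of the cortex (Star, 5066 and 3475 reads) and of the medulla (Chga, 1784 and 2785 reads) were abundant in both libraries. Replicate 2 stood apart in genes of the exocrine pancreas, with 4616 reads over the list of 21 such genes against 36 in replicate 1, and in a list of 10 liver genes, with 281 reads against 8. Suffix models held 347 and 25 of the pancreas reads in replicates 2 and 1, and 10 and 0 of the liver reads. Leaving both lists out gave suffix shares of 5.14% and 5.29% of endogenous reads, close to those with them, given next.

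Suffix models held 23284 endogenous reads in replicate 1 and 24599 in replicate 2. This was 5.15% of endogenous reads (Wilson 95% interval 5.08 to 5.21) in replicate 1 and 5.31% (5.25 to 5.38) in replicate 2, or 5.23% ± 0.117 (SD, n = 2). The intervals cover counting error only. Among incomplete splice matches, the subtype was the main one, with 65.2% and 62.9% of their reads. By Fisher's exact test on reads, two-sided, the libraries differed (p = 0.0004). They did not pass it once the 10 genes with the most suffix reads were left out (4.71% and 4.76%, Fisher's exact p = 0.339), and the direction turned when the models that match 1 transcript as a suffix and another as a prefix were added (5.82% and 5.81%, Fisher's exact p = 0.823).

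Most suffix models were rare. A single read supported 72.9% of them in replicate 1 and 71.5% in replicate 2, and these held 31.2% and 29.7% of the suffix reads. At the other end, 252 and 271 models had at least 10 reads and held 36.2% and 37.4% of the suffix reads. Annotated genes with at least 1 suffix read numbered 6577 in either library and 3225 in both, of 15683 with any read. The 10 genes with the most suffix reads carried 14.7% and 15.7% of them.

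Per gene, the share of suffix reads was usually small. Over the 3416 annotated genes with at least 20 reads in each library, the median share was 2.27% in replicate 1 and 2.63% in replicate 2 (2.45% ± 0.254, SD, n = 2). No suffix read was found in 34.9% and 34.1% of these genes. A share of at least 10% was reached by 482 and 507 genes, and a share of at least 50% by 41 and 38. Across genes, which are not replicates and share library and depth, the shares of the libraries correlated with a Pearson coefficient of 0.887 and a Spearman coefficient of 0.664. The median share was 1.09% when models that begin at an annotated transcript start were left out.

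**Figure D1:**
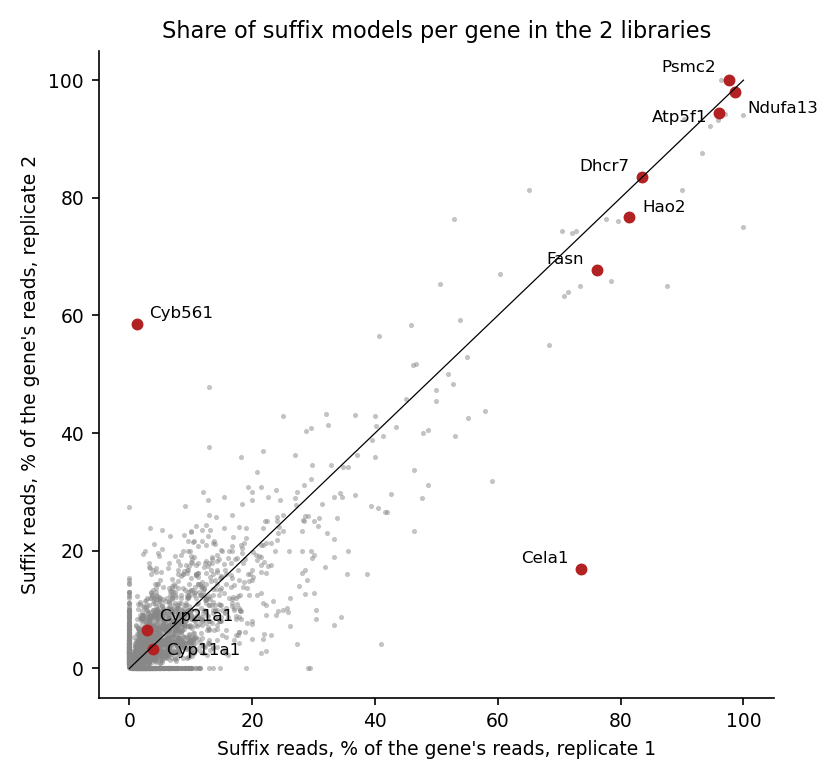
Share of suffix reads among all reads of a gene, in percent, in replicate 1 (horizontal axis) and replicate 2 (vertical axis), 1 point for each of the 3416 genes with at least 20 reads in each library; the line marks equal shares and 10 named genes are in red. Most points lie below 10% on both axes, genes such as Ndufa13, Atp5f1 and Dhcr7 lie near the line above 80%, and Cyb561 and Cela1 lie far from it.

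In 33 genes, suffix models held at least 50% of the reads in both libraries, and these genes fell into different kinds by how much was missing. In 15 of them the leading suffix model lacked only the first exon of its parent, and in 10 it lacked 10 or more exons. Among the 15 that lacked 1 exon, 11 had no read at all for the complete annotated parent, and 11 kept the whole annotated coding region. The count rested on the depth asked for, with 52 genes at a minimum of 10 reads and 14 at a minimum of 50. It fell to 17 when models at an annotated start were left out.

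**Figure D2:**
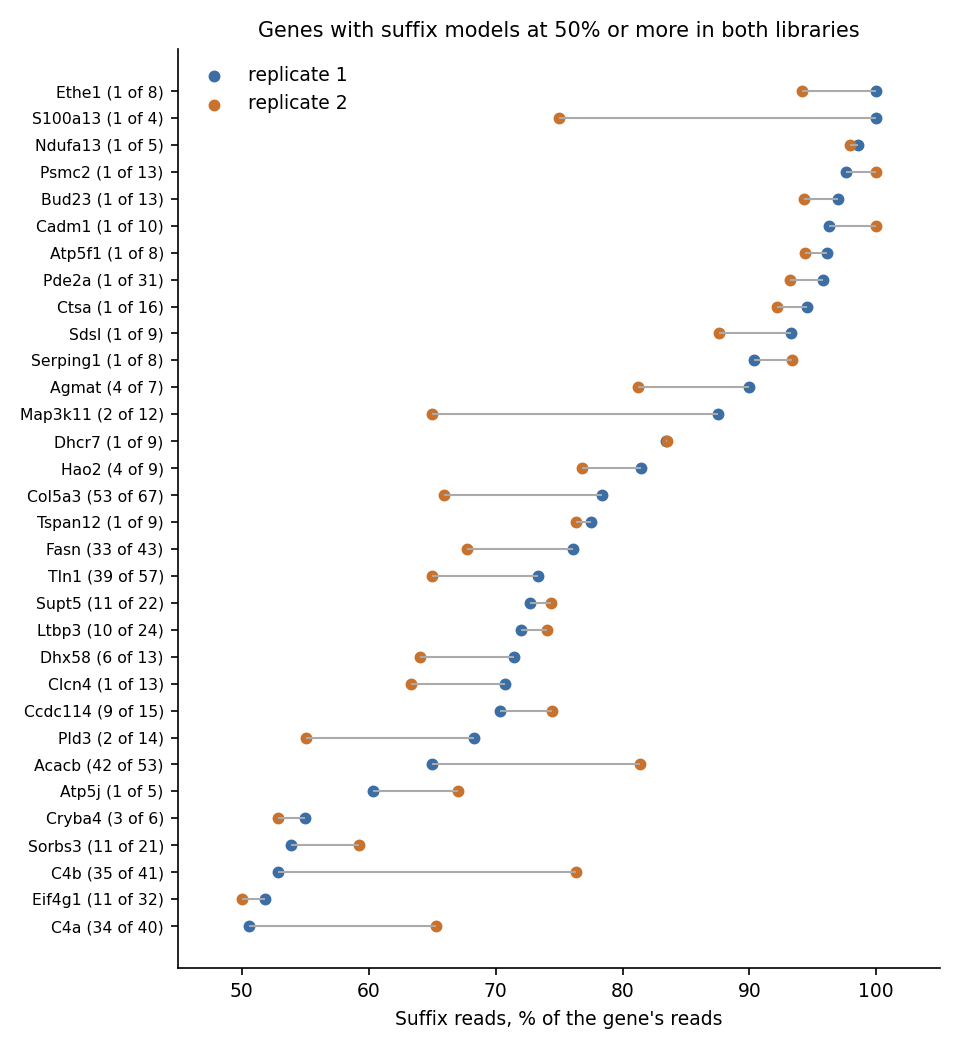
Suffix reads as a percentage of the gene's reads in replicate 1 (blue) and replicate 2 (orange) for 32 of the 33 genes at 50% or more in both; brackets give the exons missing in the leading suffix model and the exons of its parent. Genes that lack 1 exon fill most of the upper rows, and genes that lack more than 30 exons (Fasn, Col5a3, Tln1, Acacb, C4b, C4a) lie between 50.6% and 81.4%.

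Of the 15 genes with the most suffix reads, 5 encode subunits of the respiratory chain or ATP synthase. They were named for their counts, and other such subunits had few suffix reads. Cox5a had 1 of 198 and 3 of 295, Ndufa9 had 2 of 113 and 2 of 97, and Sdhd had 0 of 138 and 2 of 163. Ndufa13, a subunit of complex I (chromosome 8, 69894180 to 69902558), had 204 suffix reads of 207 in replicate 1 and 329 of 336 in replicate 2. Almost all came from 1 model of 4 exons (203 and 328 reads) that begins at exon 2 of the 5-exon parent Ndufa13-201, at the junction printed above. It kept 100% of the coding region, and no read followed an annotated Ndufa13 transcript in full. Atp5f1, the stalk subunit b of ATP synthase, had 197 of 205 and 201 of 213 reads in suffix models, with a 7-exon model at 193 and 199 reads. In both genes the shares of the libraries lay within 2 percentage points of each other.

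Atp5j, Atp5b and Ndufa4 had suffix models beside full-length ones. Atp5j, which encodes the coupling factor of the ATP synthase stalk, had 137 of 227 reads in suffix models in replicate 1 and 189 of 282 in replicate 2, with 49 and 57 Known reads. Atp5b, the catalytic beta subunit, had 253 of 1394 and 328 of 1563 reads in suffix models. Of these, 214 and 282 fell on a single model of 2 exons that starts at the annotated start of Atp5b-204, a short transcript with no coding region. It keeps 13.6% of the coding region of Atp5b-201. Ndufa4, a subunit associated with cytochrome c oxidase, had 217 of 590 and 265 of 897 reads in suffix models, nearly all in a 2-exon model (215 and 262 reads). The share of Ndufa4 was lower in replicate 2 (29.5% against 36.8%), a difference with an adjusted p of 0.676 (Fisher's exact test, Benjamini-Hochberg).

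Genes of metabolism gave both high and low shares. Hao2, a hydroxyacid oxidase of peroxisomes, had 364 of 447 reads in suffix models in replicate 1 and 288 of 375 in replicate 2. A model from exon 5 of 9 had 276 and 211 of them and a model from exon 6 had 81 and 71. Dhcr7, which catalyses the last step of cholesterol synthesis (chromosome 7, 143823145 to 143848410), had 282 of 338 and 212 of 254, or 83.4% and 83.5%. Its leading model of 8 exons had 229 and 186 reads, lacked only exon 1 of Dhcr7-201 and kept the whole coding region. Fabp4, the fatty acid carrier of fat cells, had 197 of 477 and 324 of 821 reads in suffix models, and 271 and 485 Known reads. Aldoa, an aldolase of glycolysis, had 124 of 1869 and 196 of 1872.

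Steroid-making genes were among those with the most suffix reads. Cyp11a1, the side-chain cleavage enzyme that starts steroid synthesis, had 482 of 12394 reads (3.89%) in suffix models in replicate 1 and 355 of 10862 (3.27%) in replicate 2. Its reads also included 6145 and 6300 classed as Genomic, which lack the gene's splicing. Star, the carrier of cholesterol into mitochondria, had 398 of 5066 and 257 of 3475, or 7.86% and 7.40%. Hsd3b1, the 3-beta-hydroxysteroid dehydrogenase, had 370 of 2964 and 320 of 2688 suffix reads, but only 14 and 14 Known reads. There, 2319 and 2051 reads belonged to models that match 1 transcript as a suffix and another as a prefix. Of the 21 steroidogenesis genes measured, 21 had a suffix read in at least 1 library, as did 2617 (76.6%) of all 3416 genes. Of the 21, 15 lay above the median share of all genes. Pooled over the reads of the list, however, the suffix share was 4.94% in replicate 1 and 5.23% in replicate 2. That was below the pooled 5.37% and 5.65% of all annotated genes.

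Further genes with at least 50 reads in each library had shares of 87.6% and more. Psmc2, an ATPase of the proteasome, had 81 of 83 suffix reads in replicate 1 and 62 of 62 in replicate 2. Pde2a, a phosphodiesterase that breaks down cyclic nucleotides, had 68 of 71 and 82 of 88. Ctsa, the lysosomal cathepsin A, had 86 of 91 and 71 of 77, and Sdsl, a serine dehydratase-like enzyme, had 69 of 74 and 78 of 89. In each of these genes the leading model lacked 1 exon of the parent. Known reads were 0 in both libraries for Psmc2, Pde2a and Sdsl, and 2 and 1 for Ctsa.

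An annotated parent was found for 94.2% and 95.3% of the suffix models, with 96.4% of their reads in each library. The other 579 models in replicate 1 and 480 in replicate 2 are suffix models by the deposited class only. The parent is the annotated transcript of the gene whose intron chain ends with that of the model, and the one with the most Known reads where several fit. Missing exons were counted from the intron chain, so an exon read through with its intron still counts as missing. By reads, the median number of exons missing was 3 in both libraries and the mean was 5.75 and 5.87. A single missing exon accounted for 29.2% and 27.5% of the reads, and 10 or more for 15.9% and 16.3%. The largest number missing was 101 in replicate 1 and 102 in replicate 2. The median model kept 60.0% and 58.6% of its parent's exons by reads, and 15.4% and 19.2% of reads lay in models with a single intron left.

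Fasn gave a series of suffix models that began at many different exons. This gene, the fatty acid synthase (chromosome 11, 120805846 to 120824547), has a parent of 43 exons, and its suffix reads (223 of 293 and 374 of 552) lay in 32 and 37 models. Starts before exon 19 had at most 4 reads in a library. The model from exon 34 had 40 and 38 reads, and the model from exon 23 had 22 and 43. Its most truncated recurrent model with at least 5 reads in each library lacked 39 exons and had 15 and 28 reads. Only 39 and 99 reads were Known.

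**Figure D3:**
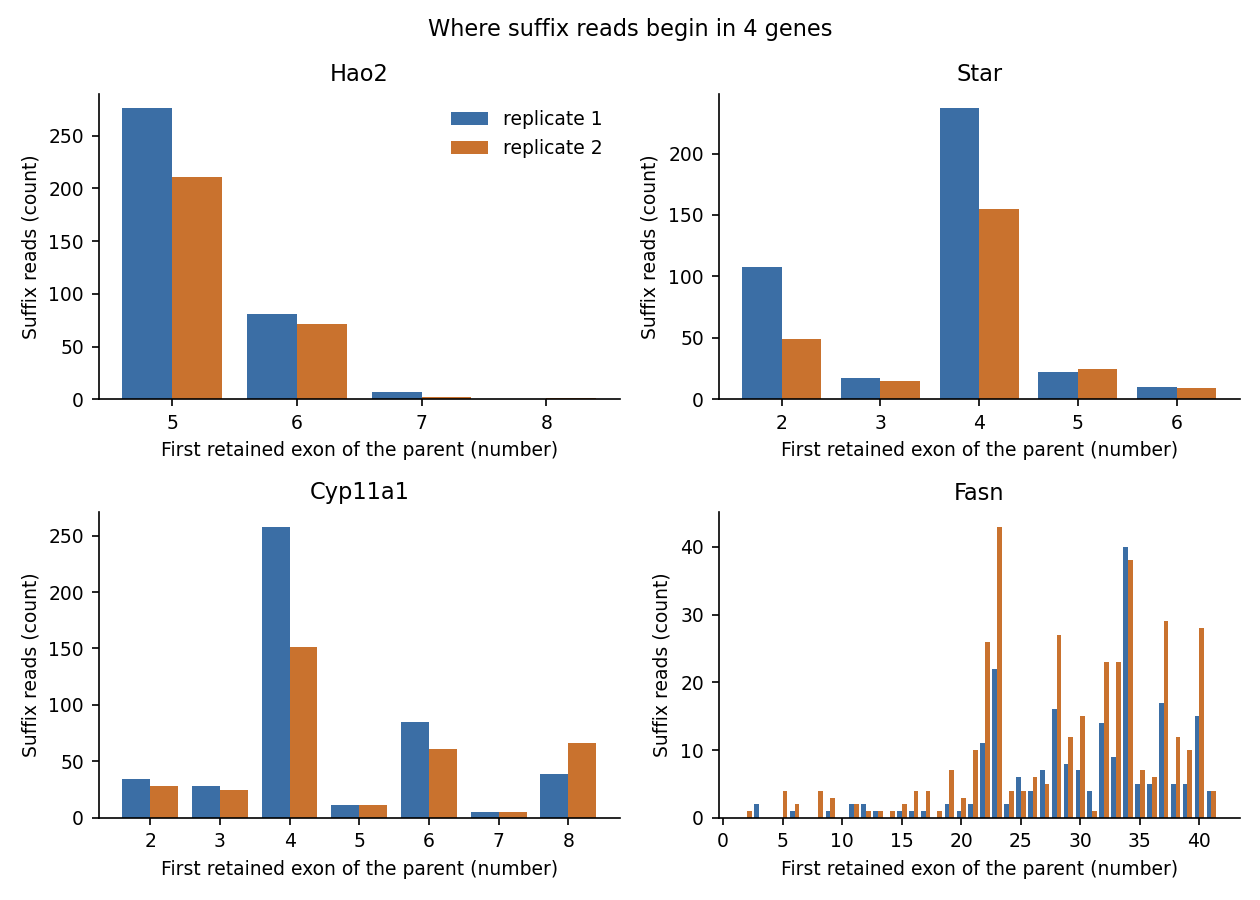
Suffix reads (count) by the number of the first exon retained from the parent, in replicate 1 (blue) and replicate 2 (orange), for Hao2, Star, Cyp11a1 and Fasn. The first exon is taken from the intron chain, and the deposited start can lie upstream of it. Hao2 reads begin mostly at exon 5 or 6, Star and Cyp11a1 reads mostly at exon 4 (237 and 155, and 258 and 151), and Fasn reads at many exons from exon 19 on.

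Star and Cyp11a1 also had preferred positions rather than an even spread. In Star, the model from exon 4 had 237 and 155 reads. The chain whose first retained exon is exon 2 had 108 and 49. Its deposited start was the exon 2 edge in replicate 2. In replicate 1 it was the start of Star-201, 982 bases upstream of exon 2, so that model reads through the first intron. The models from exons 3, 5 and 6 had at most 25 reads each in a library. In Cyp11a1, the model from exon 4 had 258 and 151 reads, and its deposited start lies in the intron before that exon, 409 bases upstream in replicate 1 and 900 bases in replicate 2. The model from exon 6 had 85 and 61 reads and the model from exon 8 had 39 and 66. C4b, a complement component, gave the longest loss outside Fasn among recurrent models with at least 5 reads in each library, with 35 of 41 exons missing and 43 and 37 reads. C4a and C4b are near-identical copies, so the division of reads between them is uncertain.

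The deposited first base of a suffix model was usually an annotated boundary. Among models with an annotated parent, it coincided to the base with an exon edge of the parent or an annotated transcript start in 84.5% in replicate 1 and 85.2% in replicate 2. These coordinates therefore do not show where each read ended. By reads, 53.1% and 57.0% began at the 5' edge of a parent exon. A further 31.3% and 29.1% began within 50 bases of the annotated start of some transcript on that strand, which can be the parent itself. Starts inside a parent exon held 8.59% and 8.95%, and starts in the intron upstream of the first retained exon 5.07% and 2.92%. The remainder had no annotated parent, as did some of the models counted at an annotated start. In replicate 1, the 3-exon Hsd3b1 model alone gave 356 of the 1180 reads with a start in the upstream intron. In replicate 2 the same chain (301 reads) was deposited with its start at the exon edge.

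**Figure D4:**
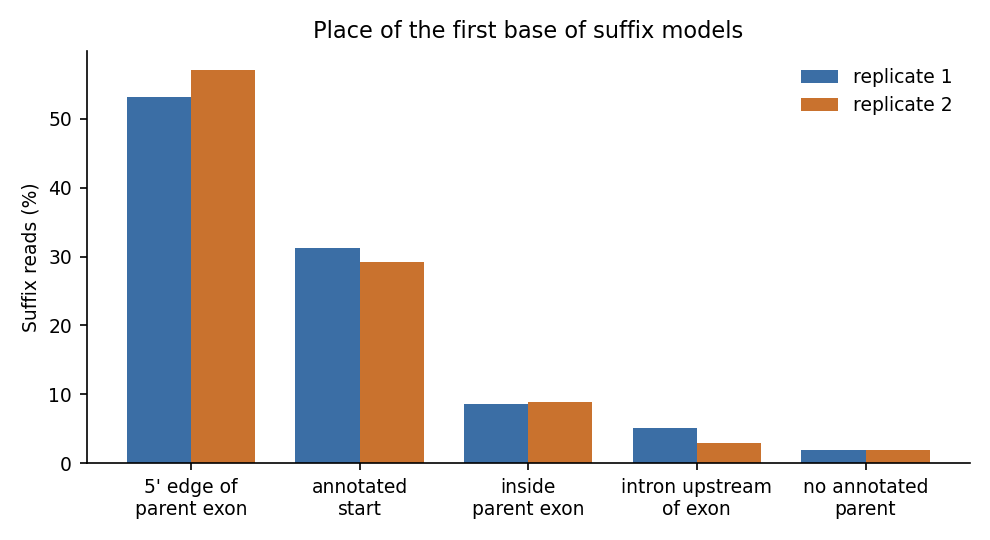
Percentage of suffix reads by the place of the model's first base, in replicate 1 (blue) and replicate 2 (orange). The 5' edge of a parent exon takes 53.1% and 57.0% of the reads and an annotated transcript start 31.3% and 29.1%.

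The starts of suffix models were set beside those of the other incomplete or unannotated spliced classes. Within 50 bases of an annotated start lay 26.7% and 25.5% of suffix models, against 96.8% and 97.1% of prefix models, which lack the 3' part. Incomplete matches that are neither suffix nor prefix had shares near those of suffix models, at 33.6% of 137 and 26.9% of 130, and those that are both had 65.7% of 143 and 69.3% of 127. The values were 94.3% and 94.6% for NIC models, an unannotated combination of annotated splice sites, and 85.1% and 83.9% for NNC models, which hold a splice site that is not annotated. At the other end, by reads, 68.1% and 68.2% ended within 50 bases of the parent's 3' end. These are descriptions of models that differ also in exon number, and the class itself is defined by the missing first introns.

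Several well-read suffix models have a deposited start at or near the gene's start in another annotation. Compared with the starts in the RefSeq table of GRCm38.p6, matched through Entrez identifiers, 4.13% of 7603 models in replicate 1 and 3.52% of 7832 in replicate 2 had a RefSeq start in their first exon or up to 50 bases before it. They held 9.68% and 8.41% of the reads compared. Models at an annotated GENCODE start had such a RefSeq start in 16.7% and 14.9% of cases, and models at an exon edge in 0.0891% and 0.0840%. The annotated GENCODE start can be that of the parent itself. Models at an exon edge lie, by definition, more than 50 bases from every GENCODE start. Where RefSeq and GENCODE share a start, this contrast is therefore fixed in advance. The lines below show 90 bases of RefSeq sequence around the start nearest to 4 of these models, 5' to 3' on the gene's strand, with the bases from the RefSeq start on in capitals.
Dhcr7 (plus strand, chr7:143830144-143830233): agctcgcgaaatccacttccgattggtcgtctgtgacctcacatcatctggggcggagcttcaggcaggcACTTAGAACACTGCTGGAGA
Atp5f1 (minus strand, chr3:105959244-105959333): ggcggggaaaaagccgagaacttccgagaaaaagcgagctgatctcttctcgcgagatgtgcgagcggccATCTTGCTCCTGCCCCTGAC
Ctsa (plus strand, chr2:164833703-164833792): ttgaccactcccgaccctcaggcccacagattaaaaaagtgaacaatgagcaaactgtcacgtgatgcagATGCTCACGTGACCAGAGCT
Psmc2 (plus strand, chr5:21786677-21786766): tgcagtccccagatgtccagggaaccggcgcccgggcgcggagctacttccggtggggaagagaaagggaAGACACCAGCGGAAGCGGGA

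The leading Dhcr7 model began 20 bases downstream of this RefSeq start in both libraries. The leading Atp5f1 model began 17 bases downstream in replicate 1 and 13 bases upstream in replicate 2. The leading Ctsa model began 34 bases downstream in replicate 1 and at the start itself in replicate 2. The Dhcr7 and Atp5f1 models in both libraries, and the Ctsa model in replicate 1, were deposited exactly at annotated GENCODE starts. Their distances therefore compare annotations and do not show where each read ended. The leading Psmc2 model was deposited with its start 97 bases upstream of the RefSeq start, at the edge of the exon that holds it. Of the 4 windows, none held the letters TATAAA on either strand, which 4.94% of the 32851 RefSeq windows of the same length did. The letters GGGCGG, a GC box, were found on either strand in 1 window, that of Dhcr7, and in 23.0% of all windows. These matches are descriptions of the letters only. Ndufa13 differed, since its leading model began 288 bases downstream of the RefSeq start, which lies outside the first exon of the model.

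Most suffix models lacked the annotated start codon. Among models whose parent has a coding region (9124 and 9444), 89.0% and 89.9% lacked it, with 80.0% and 81.7% of the reads. Coding bases count as kept, here and above, where they lie at or after the model's first base. An intron left unspliced among them was not checked. By this measure the whole coding region was kept by models with 20.0% and 18.3% of the reads. The median share of the coding region kept was 65.7% and 62.5% by reads. Of the 3413 recurrent models with a coding parent, 478 kept the whole coding region, and for 45 of these the parent had no Known read in either library.

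The place of the start went with what was lost. Models at the edge of an exon lacked the start codon in 94.4% of cases in each library, and models at an annotated start in 72.2% and 74.1%. Weighted by reads, the latter lacked it in 56.8% and 58.3%. Models at an annotated start include some that begin at their own parent's start and read through its first intron. An example is the 6-exon Star model in replicate 1. The span of such a model holds the start codon by definition, so the contrast with exon edges is partly fixed in advance. The number of such models was not counted. Models at an annotated start had a median of 3 exons missing in both libraries, against 5 and 6 for models at an exon edge. Dhcr7, Atp5f1, Atp5j, Sdsl and Pld3 were examples with a start at an annotated start and the whole coding region kept in both libraries. Pld3, a phospholipase D family member of lysosomes, had 63 and 54 reads in such a model.

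Suffix shares increased with the number of exons. Over 3104 genes whose leading Known transcript had at least 3 exons, the median share was 0.465% and 0.741% at 3 to 5 exons and 7.02% and 8.00% at 14 to 67 exons. The order of the 5 exon bins was the same in both libraries. By transcript length, the median share was 1.06% and 1.60% in the shortest of 5 bins (255 to 1231 bases) and 4.55% and 4.35% in the longest (3274 to 13507 bases). Across genes, the Spearman coefficient of the share with exon number was 0.439 and 0.440, and with length 0.245 and 0.226. A model can lose exons at more places where the parent has more of them, and median reads per gene also fell, from 60 in each library in the first exon bin to 44 and 39 in the last. Whether either bears on the share was not tested.

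**Figure D5:**
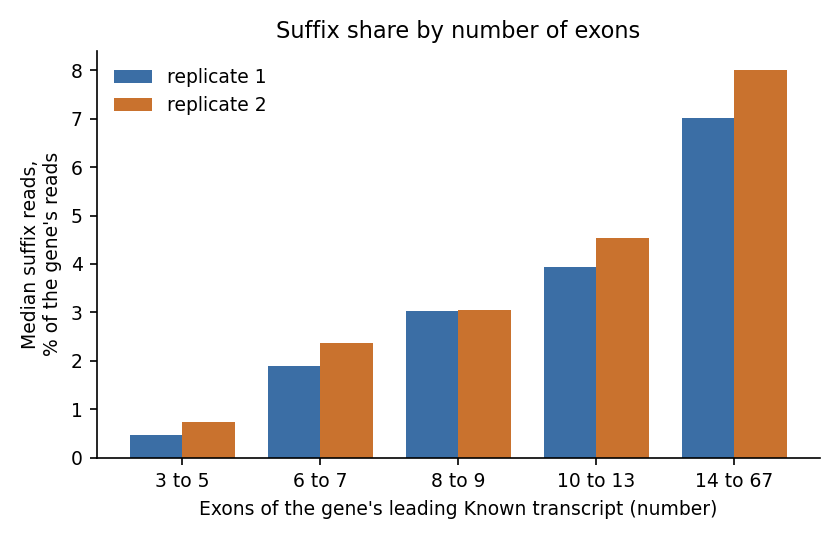
Median share of suffix reads among the reads of a gene, in percent, in bins of the number of exons of the gene's leading Known transcript, in replicate 1 (blue) and replicate 2 (orange). The medians go from 0.465% and 0.741% at 3 to 5 exons to 7.02% and 8.00% at 14 to 67 exons.

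Exon number did not fix the share of a gene. Among 103 genes with at least 200 reads in each library and at least 8 exons in the leading Known transcript, the lowest shares were those of Cd81, Mtch1, Chpt1, Tmem59 and P4hb. Cd81, a tetraspanin of the cell surface with 8 exons, had 1 suffix read of 751 in replicate 1 and 3 of 569 in replicate 2. P4hb, a protein disulfide isomerase with 11 exons, had 4 of 418 and 6 of 351. Atp5b, with 10 exons, had 253 of 1394 and 328 of 1563 (given above).

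The suffix share was compared between the libraries gene by gene by Fisher's exact test, two-sided, with Benjamini-Hochberg adjustment over 2617 genes with at least 20 reads in each library and at least 1 suffix read. Calls required a difference of at least 10 percentage points as well as an adjusted p under 0.05. This called 2 genes, or 0.0764% of those tested, 1 with the higher share in replicate 2 (0.0382%) and 1 with the higher share in replicate 1 (0.0382%). With no minimum difference 4 genes passed, and 72 had an unadjusted p under 0.05. Over all genes tested, 1399 had the higher share in replicate 2 and 1203 in replicate 1.

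The gene called higher in replicate 2 was Cyb561, cytochrome b561, which passes electrons across the membrane of chromaffin granules. It had 2 suffix reads of 165 in replicate 1 and 113 of 193 in replicate 2, or 1.21% and 58.5% (Fisher's exact test, adjusted p = 9.52e-34). The 6-exon chain that gave 104 of the suffix reads in replicate 2 was present in replicate 1 with 88 reads, but there its class was NIC. No annotated parent was found for this chain, and the gene's annotated transcripts have at most 6 exons. The chain is thus a suffix model by the deposited class only. Counting every chain classed as suffix in either library under whichever class but Known it had, Cyb561 stood at 54.5% and 58.5% (Fisher's exact test, adjusted p = 1) and was not called. The suffix share of the gene thus changed with the class given to this chain.

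The gene called higher in replicate 1 was Cela1, an elastase of the exocrine pancreas, with 25 suffix reads of 34 against 53 of 314 (adjusted p = 1.77e-08, Fisher's exact test). Its share was 73.5% in replicate 1 and 16.9% in replicate 2. A single 7-exon model gave all 25 suffix reads of replicate 1, and the same model had 31 reads in replicate 2. This gene had 8 and 236 Known reads and belongs to the list in which replicate 2 stood apart. Whether that bears on the share was not tested. With a minimum of 50 reads Cela1 was not tested, and Lmna was called beside Cyb561 (26 of 162 and 3 of 127 reads).

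Cyp21a1, the steroid 21-hydroxylase, passed the test but not the difference asked for, with 187 of 6639 suffix reads (2.82%) in replicate 1 and 352 of 5343 (6.59%) in replicate 2 (Fisher's exact test, adjusted p = 6.29e-20). Here too the class moved: a 9-exon chain with 111 suffix reads in replicate 2 had 433 reads in replicate 1 as a match of both suffix and prefix. Counted under any class but Known, the direction turned, to 11.4% in replicate 1 and 6.59% in replicate 2. Aldoa, at 6.63% and 10.5%, was the other gene to pass without a minimum difference (Fisher's exact test, adjusted p = 0.0204).

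Recurrence between the libraries went with the number of reads of a chain. Of the 16604 chains, 3586 (21.6%) were classed as suffix in both libraries, which is 35.9% of the chains of replicate 1 and 35.1% of those of replicate 2. These held 67.6% and 65.4% of the suffix reads. Chains with 1 read recurred in 23.6% and 22.6% of cases, chains with 2 to 4 reads in 60.3% and 58.9%, and chains with at least 10 reads in 98.8% and 93.4%. The deposited 5' ends of recurrent chains were identical in 77.7% of cases and within 50 bases in 84.2%. Most deposited starts are annotated boundaries (given above), so identical ends do not show that the reads ended at the same base.

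The chains with at least 10 reads that did not recur were 3 of 252 in replicate 1 and 18 of 271 in replicate 2. Some were present in the other library under another class, as for Cyp21a1 and Cyb561, and for a 22-exon chain of Acsl5, an acyl-CoA synthetase (27 suffix reads in replicate 2, 9 NIC reads in replicate 1). Others were not seen there, among them models of the pancreatic genes Ctrc (43 reads in replicate 2), Cela3b (16 reads) and Ctrb1 (13 and 11 reads). Counting a chain seen under any class raised the reads in recurrent chains to 68.1% and 67.3%.

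Gene lists were described by the median share of their members with at least 20 reads in each library, beside 2.27% and 2.63% over all 3416 genes. The extracellular matrix list had the highest medians of the lists with at least 4 measured genes, 21.5% and 16.3% over 9 genes. Of these, 8 lay above the median of all genes. Its members Col4a1, Col4a2 and Col1a1, collagen chains, had shares of 58.0% and 43.8%, 53.1% and 39.5%, and 47.8% and 40.0%. The leading Known transcripts of this list had a median of 15 exons, against 7 over all genes. Sparc, a matrix protein with 10 exons, had 110 of 841 and 72 of 606 suffix reads.

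Lists with higher medians than all genes in both libraries also included cholesterol synthesis (10.1% and 5.36%, 9 genes) and translation elongation (10% and 5%, 13 genes). In cholesterol synthesis, the pooled share of 26.5% and 26.7% rested on Dhcr7, without which it was 7.86% and 5.69%. Fdps, the farnesyl diphosphate synthase, had 21 of 167 and 8 of 123. In translation, Eef2, the elongation factor that moves the ribosome along the mRNA, had 141 of 585 and 142 of 651, and Eef1a1, which brings aminoacyl-tRNA to it, 90 of 476 and 87 of 468. Of the other lists with at least 4 measured genes, those above all genes in both libraries were steroidogenesis (4.92% and 4.17%), glycolysis and citrate cycle (4.81% and 4.02%), chaperones (3.19% and 4.55%), adipose (4.21% and 4.40%), cytoskeleton and motor (4.37% and 4.62%), cholesterol uptake and storage (2.72% and 3.00%) and macrophage and antigen presentation (2.86% and 4.39%). No list but those that hold Cyb561 and Cela1 had a called member.

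Low medians were found for genes with few exons and for some with many. Red blood cell genes had 0% and 0.0945% over 4 genes, with a median of 3 exons. Hba-a1, an alpha globin that has a near-identical copy, had 0 suffix reads of 1190 and 0 of 961, which allows shares of up to 0.252% and 0.312% (3 counts). Vacuolar ATPase genes had 1.45% and 1.10% over 15 genes, although their median exon number was 9. Fth1, the ferritin heavy chain, had 8 of 1655 and 7 of 2119 suffix reads. Some lists lay below all genes in replicate 1 and above them in replicate 2: antioxidant (1.85% and 2.75%), haem synthesis and iron (1.72% and 3.35%), endothelial (1.45% and 5.51%) and chromaffin granule and catecholamine (1.95% and 2.70%). Within the last, Chga, Chgb and Npy, which encode granule proteins and a peptide, had 113 of 1784 and 145 of 2785, 94 of 1525 and 164 of 2477, and 34 of 313 and 49 of 582.

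The leading suffix model was set against the Known reads of its gene. In 319 genes the leading suffix model had more reads than all Known models of the gene in both libraries, and 51 of these had at least 20 reads in each library. Those with the most reads included Hsd3b1, Oaz1 and Hao2. Oaz1, an inhibitor of polyamine synthesis, and Hnrnpk, an RNA-binding protein, met the condition with few reads: their leading suffix models had at most 4 reads, and their Known reads were 2 and 1, and 0 and 0. Their reads lay mostly in NIC models, 913 and 874 for Oaz1 and 179 and 91 for Hnrnpk, so the condition does not mean that suffix models led the gene. The spike-in transcripts gave no comparison, since 0 of 41 models in replicate 1 and 1 of 43 in replicate 2 had more than 1 exon and none was a suffix model.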

How the data were processed

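Long-read cDNA from 2 adrenal libraries was mapped to mm10, per the labels. The authors deposited whole-number read counts per transcript model, with no normalization, and model files with exon coordinates. Their columns are those of TALON, with version and aligner not given in the sources used here. Suffix models were matched by intron chain between libraries, and parents were sought in the GENCODE M21 primary assembly annotation. Shares were computed on counts over all reads of a gene, without spike-ins, over genes with at least 20 reads in each library. Fisher's exact test used scipy 1.17.1, with Benjamini-Hochberg adjustment in statsmodels 0.14.6. Wilson intervals are at 95%. Without molecular identifiers, copies of 1 molecule cannot be recognised, so tests and intervals cover counting error only. edgeR 4.0.16 and DESeq2 1.42.0 gave only scaling factors. On simulated data, 57 of 63 genes changed by 40 percentage points, 30 of 66 changed by 20, 12 of 71 changed by 10 and 2 of 2758 left unchanged (0.0725%) were called, among 2958 genes. The members and lists were chosen with earlier results of these data known. Named genes were the 15 with the most suffix reads, the 10 most-read recurrent models, the 10 highest shares, called genes, the most truncated models, the leading members of each list, the most-read models at annotated starts, genes led by a suffix model over Known reads, and the lowest shares. Genes named in other respects, such as Cox5a, Ndufa9, Sdhd, Acsl5, Lmna, Col5a3, Tln1, Acacb and C4a, were chosen after their values were seen. A gene that met the naming rule is not reported here, and stays in the counts over all genes.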

Additional observations from a re-analysis of the deposited data

How the results depend on the processing

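The difference in the whole suffix share between the libraries kept its direction and p under 0.05 with multi-exon models alone and without the pancreas and liver lists or Cyp21a1. It was 4.73% on average with Fisher's exact p = 0.339 without the 10 leading genes, and 5.33% with p = 0.72 when chains were counted under any class but Known. It turned with the subtypes Suffix and Both together (5.81%, 5.82% in replicate 1 and 5.81% in replicate 2). The settings without the lists or Cyp21a1, without models at an annotated start, with at least 3 exons and under any class were chosen after seeing the data.

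The median share per gene was 2.09% at a minimum of 50 reads, 2.84% with at least 3 annotated exons and 1.09% without models at an annotated start. Genes at 50% or more in both libraries were 52 and 14 at minimums of 10 and 50 reads and 17 without models at an annotated start. Genes called were 4 at any difference, 5 over Known, ISM, NIC and NNC reads, 7 without models at an annotated start and 1 under any class. Mean exons missing per read were 5.19 with the parent that lacks fewest and 6.17 with the parent that has most. Reads in recurrent chains were 55.8% with 5' ends within 50 bases, 96.2% for models with at least 5 reads and 64.8% with at least 2 introns. The start codon was lacking in 78.4% of reads with the parent that lacks fewest exons. For these results the cause was not tested beyond the change of genes or models that each setting makes.

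The median log2 ratio of suffix CPM between the libraries, replicate 2 over replicate 1, was 0.04 over 842 genes, 0.08 with TMM or DESeq2 factors and -0.02 over 6577 genes with no minimum. Leaving out 1 library gave 5.15% to 5.31% for the whole share, 2.27% to 2.63% for the median share, 38 to 41 genes at 50% or more, 5.75 to 5.87 exons missing, 29.1% to 31.3% of reads at an annotated start and 80.0% to 81.7% lacking the start codon. No paired analysis was possible because the series has 1 group. Depth limits rare models: chains with 1 read recurred in 23.6% and 22.6% of cases.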
